A study of Homo sapiens with 2 samples.

Results

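The miR-34 and miR-449 family was followed in small RNA libraries of BEAS-2B cells. The members were all entries of the count table whose name is exactly hsa-miR-34a, hsa-miR-34b, hsa-miR-34c, hsa-miR-449a, hsa-miR-449b or hsa-miR-449c, with or without an arm. The species prefix is left out from here on. This rule found 11 of the 2904 entries, and it used no measured value. The manganese group is BEAS-2B cells, labelled wild type, exposed to manganese for 24 h, and the control group is the same line given vehicle for 24 h. Each of the 2 groups held 1 library, so differences compare the 2 libraries, have no replicate check and carry no p-value. Neither the dose nor the compound of manganese is given in the labels. BEAS-2B is a human bronchial epithelial line immortalised with an adenovirus and SV40 hybrid virus, whose large T antigen binds and inactivates p53. The activity of p53 in these 2 libraries was not tested.

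The family consists of miRNAs that share or nearly share the seed, the short stretch near the 5′ end that pairs with target messenger RNAs. miR-34a is a textbook transcriptional target of p53 and restrains the cell cycle through targets such as CDK6, E2F3 and MET. The miR-34b and miR-34c hairpins form a second locus, also p53-responsive, whose products are abundant in multiciliated cells of the airway, testis and brain ventricles. The miR-449 hairpins are hosted by CDC20B, a gene of the multiciliated cell program, and with miR-34b and miR-34c they promote the exit from the cell cycle and the formation of motile cilia.

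The mature sequences are shown because the seed defines the family and the position of the shared letters differs between members. Of the 11 mature names, 9 matched the RefSeq table (GRCh38.p14), and those without an entry there were miR-34c-5p and miR-449c-3p. Capitals mark the seed, bases 2 to 8 from the 5′ end.
miR-34a-5p: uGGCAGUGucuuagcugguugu
miR-449a: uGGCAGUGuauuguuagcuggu
miR-449b-5p: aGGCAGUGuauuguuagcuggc
miR-34b-5p: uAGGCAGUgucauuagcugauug
miR-449c-5p: uAGGCAGUguauugcuagcggcugu
miR-2682-5p: cAGGCAGUgacuguucagacguc
The first 3 have the seed GGCAGUG. In miR-34b-5p and miR-449c-5p these letters start at base 3 instead of base 2, which makes the seed AGGCAGU. That second seed also occurs in miR-2682-5p, a miRNA of the MIR137HG locus that is no family member by name and was the only other name found with one of these 5p seeds among the RefSeq mature sequences that have an entry in the count table. Entries with no RefSeq sequence were not searched. Over their whole length, miR-449a and miR-449b-5p are the closest pair, with a shared run of 20 bases that includes the seed. The longest run that miR-34a-5p shares with either miR-34b-5p or miR-449a is 9 bases.

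The 6 hairpins lie at 3 loci of GRCh38, and the positions of all 6 were the same in GENCODE 29 and in RefSeq. MIR34A is on chromosome 1 from 9151668 to 9151777, minus strand, in an exon of the long non-coding RNA MIR34AHG. MIR34B, on chromosome 11 from 111512938 to 111513021, and MIR34C, from 111513439 to 111513515, are on the plus strand with 417 bases between them. GENCODE 29 has no other gene over this pair, while RefSeq places both within the spans of the long non-coding RNA MIR34BHG and of BTG4. MIR449A (55170532 to 55170622), MIR449B (55170646 to 55170742) and MIR449C (55172262 to 55172353) are on the minus strand of chromosome 5 and in introns of CDC20B.

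The manganese library held 1091070 counts over 781 entries, and the control library 1064179 counts over 797 entries. Counts were scaled with TMM factors to CPM, the number of counts per 1e6 scaled library counts. Unless said otherwise, intervals are 95% intervals of counting error alone. The 403 entries whose counts in both libraries sum to 20 or more are called measured. The fold is the scaled manganese level over the scaled control level. An entry passes the rule of size if its fold is at least 2 in either direction and the interval excludes 1-fold. The manganese library also held more counts of miRNAs on fixed lists linked to blood cells, to the placental 19q13 cluster and to mesenchyme. Which cells these counts came from was not tested. The blood cell list summed to 16.2% of manganese counts and 0.908% of control counts, the 19q13 list to 0.0762% and 0.00667%, and the mesenchymal list to 0.0396% and 0.00498%. Within the blood cell list, miR-486-5p alone gave 174822 of 176536 counts with manganese and 9597 of 9660 in the control. Within the mesenchymal list, miR-143-3p gave 354 of 432 counts with manganese and 26 of 53 in the control. The joined miR-199b-3p and miR-199a-3p entry had 76 and 25 counts, and miR-145-5p had 2 in each library. Counts were found in either library for 9 of 11 blood cell, 26 of 51 19q13 and 3 of 7 mesenchymal entries, beside 965 of all 2904 entries. The blood cell miR-144-5p and miR-144-3p were at 0 in the control, and the mesenchymal miR-199a-5p at 0 in both libraries. Their part in the results below was not tested, but folds scaled without the blood cell and 19q13 lists are given.

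The miR-34b and miR-34c locus was lower in the manganese library, and miR-34a was at nearly the same level in both libraries. Counts were found for 9 of the 11 family entries, 6 of them with manganese and 9 in the control. Of all 2904 entries, 965 had counts, 781 with manganese and 797 in the control. The family entries with counts in the control alone were miR-34a-3p, miR-449c-5p and miR-449c-3p, with only 2, 3 and 1 counts. Both arms of miR-449b were at 0 in both libraries. The 6 measured entries were miR-34a-5p, both arms of miR-34b, both arms of miR-34c, and miR-449a. Of these 6, miR-34b-5p alone (1 entry) passed as lower and 0 passed as higher, beside 6.45% lower and 12.9% higher of all measured entries. With a fold of 1.5 in place of 2, 3 of the 6 were lower (miR-34b-5p, miR-34b-3p and miR-34c-5p) and 0 higher, beside 14.1% lower and 15.9% higher of all measured entries. Those 3 come from 1 locus, so they are not independent observations. In bulk RNA, fewer cells that make a miRNA and less of it per cell cannot be told apart.

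**Figure D1:**
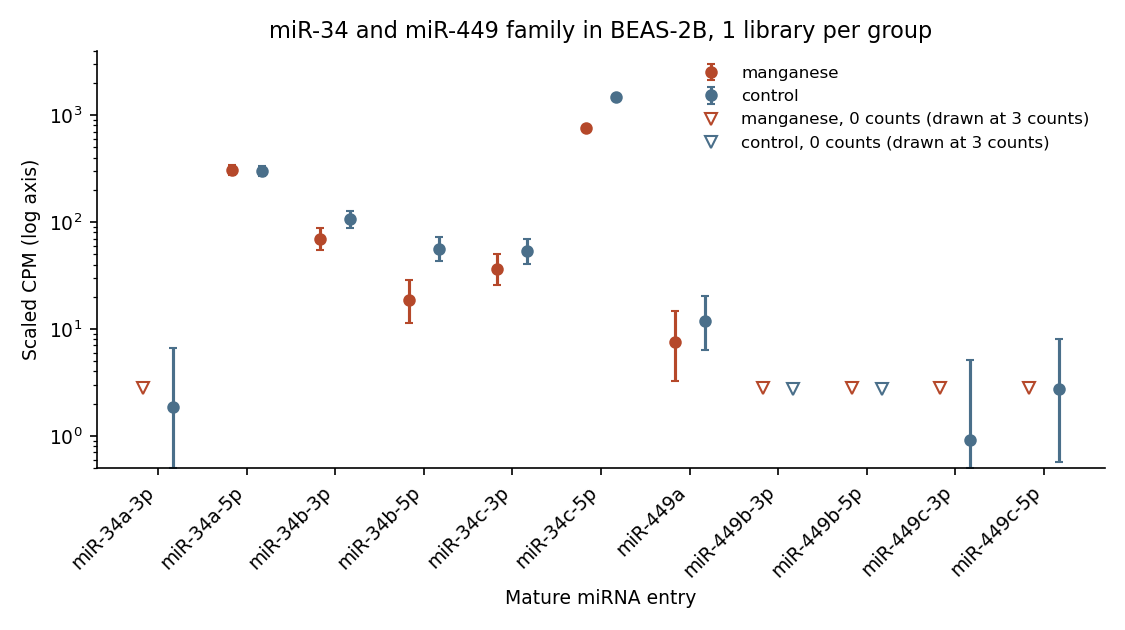
Scaled CPM (log axis) of the 11 family entries in the manganese library (red) and the control library (blue). Bars are exact Poisson 95% intervals of counting error, cut off at the lower edge of the axis, and open triangles stand for 0 counts, drawn at the level of 3 counts. miR-34c-5p is the most abundant entry in both libraries, at 763 CPM with manganese and 1466 CPM in the control.

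The p53-responsive locus of miR-34a gave one arm almost alone. miR-34a-5p had 330 counts with manganese and 326 in the control, equal to 308 CPM (276 to 344) and 300.4 CPM (269 to 335). The intervals of the 2 libraries overlap over most of their length. The fold was 1.03 (0.879 to 1.20), and its side of 1 changed with the scaling, from 0.987 with total counts to 1.17 when the blood cell and 19q13 lists were left out of the totals. The passenger arm miR-34a-3p had 0 counts with manganese and 2 in the control, too few for a fold. The floor that stands for 0 was set at 3 counts, or 2.80 CPM in the manganese library. The exact Poisson interval of 0 counts there reaches 3.45 CPM. The 3 measured entries nearest to miR-34a-5p in level, by distance in log2 CPM over the 2 libraries, were miR-590-3p (distance 0.16), miR-361-5p (0.16) and miR-193b-3p (0.19). Among the 403 measured entries, 234 had a lower fold than miR-34a-5p and 168 a higher one, and over all measured entries the median log2 fold was −0.08.

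miR-34c-5p, the main product of the multiciliated-cell locus in these libraries, had the most family counts. It had 816 counts with manganese and 1591 in the control, equal to 763 CPM (711 to 817) and 1466 CPM (1395 to 1540). The manganese value lies well below the control value, and the counting intervals do not overlap. The fold was 0.520 (0.478 to 0.567), short of the rule of 2-fold, and 30 of the 403 measured entries had a lower one. By count it ranked 65th of all entries with manganese and 50th in the control. Its passenger arm miR-34c-3p had 39 and 58 counts, equal to 36.5 CPM with manganese and 53.4 CPM in the control. That fold was 0.682 (0.443 to 1.04), with an interval that includes 1-fold.

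The neighbouring hairpin of miR-34b gave far fewer counts and mostly from its other arm. miR-34b-5p had 20 counts with manganese and 61 in the control, equal to 18.7 CPM (11.4 to 28.9) and 56.2 CPM (43.0 to 72.2). These intervals do not overlap. The fold was 0.333 (0.190 to 0.559), and 5 of the 403 measured entries had a lower one. miR-34b-3p had 75 counts with manganese and 115 in the control, equal to 70.1 CPM (55.1 to 87.9) and 106 CPM (87.5 to 127). Its intervals overlap only at their ends, at 87.5 to 87.9 CPM, and the fold was 0.662 (0.488 to 0.893).

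**Figure D2:**
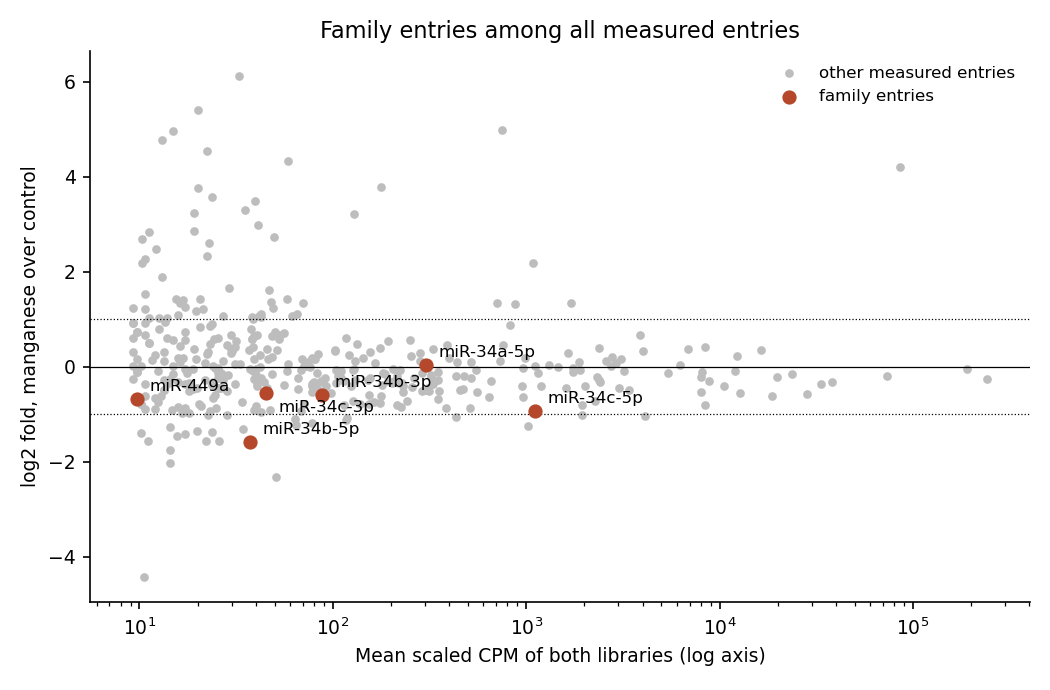
The log2 fold, manganese over control, against the mean scaled CPM of both libraries (log axis) for 401 of the 403 measured entries, leaving out those with 0 counts in one library. Family entries are red and dotted lines mark 2-fold. miR-34b-5p lies at −1.59, miR-34c-5p at −0.94 and miR-34a-5p at 0.04.

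Summed over both arms, the hairpins of the locus differed between libraries by nearly the same factor. MIR34C had 855 counts with manganese and 1649 in the control, a fold of 0.526 (0.484 to 0.572). MIR34B had 95 counts with manganese and 176 in the control, a fold of 0.548 (0.422 to 0.707). There were 9 counts of MIR34C for each count of MIR34B with manganese and 9.37 in the control. The ratio of these, 0.961 (0.734 to 1.26), is a wide interval around 1. The 4 entries together had 950 and 1825 counts, equal to 888 CPM with manganese and 1682 CPM in the control, a fold of 0.528 (0.488 to 0.571).

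A ratio of loci within a library does not depend on how the libraries are scaled. With manganese there were 2.88 counts from MIR34B and MIR34C for each count from MIR34A, against 5.56 in the control. The manganese ratio was 0.517 times the control ratio (0.434 to 0.617). Without miR-34c-5p, which holds most of these counts, the same comparison gave 0.406 and 0.713, and 0.569 times the control (0.434 to 0.745). With the 5p arms alone it gave 0.4999 times the control (0.418 to 0.597). The balance of miR-34a against the miR-34b and miR-34c locus thus differed beyond counting error in each of these 3 comparisons. They share counts, so they are not independent.

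The miR-449 locus was close to the limit of detection. miR-449a had 8 counts with manganese and 13 in the control, equal to 7.48 CPM (3.23 to 14.7) and 12.0 CPM (6.38 to 20.5). The counting intervals overlap widely, and the fold of 0.624 (0.224 to 1.62) includes 1-fold. miR-449c-5p had 0 counts with manganese and 3 in the control, and miR-449c-3p had 0 and 1. All 5 entries summed to 8 counts with manganese and 17 in the control, a fold of 0.477 (0.178 to 1.17). Relative to MIR34B and MIR34C, the miR-449 counts differed 0.904-fold (0.336 to 2.22) between manganese and control, and relative to MIR34A 0.468-fold (0.172 to 1.16). At this depth a difference in miR-449 was not detectable in either ratio.

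The order of the levels within each library was miR-34c-5p, miR-34a-5p and miR-34b-3p. miR-34c-3p (36.5 CPM) and miR-34b-5p (18.7 CPM) came next with manganese, and miR-34b-5p (56.2 CPM) and miR-34c-3p (53.4 CPM) in the control. The counting intervals of these last arms overlapped in both libraries, so their order is not set. miR-449a followed in both. Small RNA libraries can capture different sequences with unequal efficiency, so this order is one of counts.

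Within the pool of the family's 5p arms, miR-34a-5p took a larger share in the manganese library. The 5p arms summed to 1174 counts with manganese and 1994 in the control, equal to 1097 CPM and 1837 CPM, a fold of 0.597 (0.555 to 0.642). miR-34c-5p held 69.5% (66.8 to 72.1) of the pool with manganese and 79.8% (78.0 to 81.5) in the control. The share of miR-34a-5p was 28.1% (25.6 to 30.8) with manganese and 16.3% (14.8 to 18.0) in the control. Those of miR-34b-5p were 1.70% (1.04 to 2.62) and 3.06% (2.35 to 3.91), whose intervals overlap. miR-449a held 0.681% with manganese and 0.652% in the control. The non-member miR-2682-5p, which has the seed of miR-34b-5p, gave 21 counts with manganese and 32 in the control, and its fold was 0.666 (0.365 to 1.19).

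Arm use set the hairpins apart, and the hairpins of miR-34a and miR-34b are printed for that reason, with the 5p arm and then the 3p arm in capitals.
MIR34A: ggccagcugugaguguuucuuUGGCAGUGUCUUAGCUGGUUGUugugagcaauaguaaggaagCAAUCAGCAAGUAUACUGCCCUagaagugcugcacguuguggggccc
MIR34B: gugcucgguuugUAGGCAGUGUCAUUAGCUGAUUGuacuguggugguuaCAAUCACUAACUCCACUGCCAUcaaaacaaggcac
The 5p arm gave 330 of 330 MIR34A counts with manganese (100%, 98.9 to 100) and 326 of 328 in the control (99.4%, 97.8 to 99.9). It gave 95.4% (93.8 to 96.7) of MIR34C counts with manganese and 96.5% (95.5 to 97.3) in the control. For MIR34B the 5p arm was the minor one, with 21.1% (13.4 to 30.6) of counts with manganese and 34.7% (27.7 to 42.2) in the control. The odds of 5p against 3p for miR-34b with manganese were 0.503 times those in the control (0.265 to 0.928). For miR-34c the same ratio was 0.763 (0.495 to 1.19), which includes 1. Of 83 hairpins in the table with both arms measured, 22.9% had an interval below 1 and 18.1% one above 1, so a shift of this kind was common. The odds ratio was lower than that of miR-34b in 10 of the 83 hairpins. The 3p arms of miR-34b and miR-34c share a run of 10 bases but not a seed, which is AAUCACU in miR-34b-3p and AUCACUA in miR-34c-3p.

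**Figure D3:**
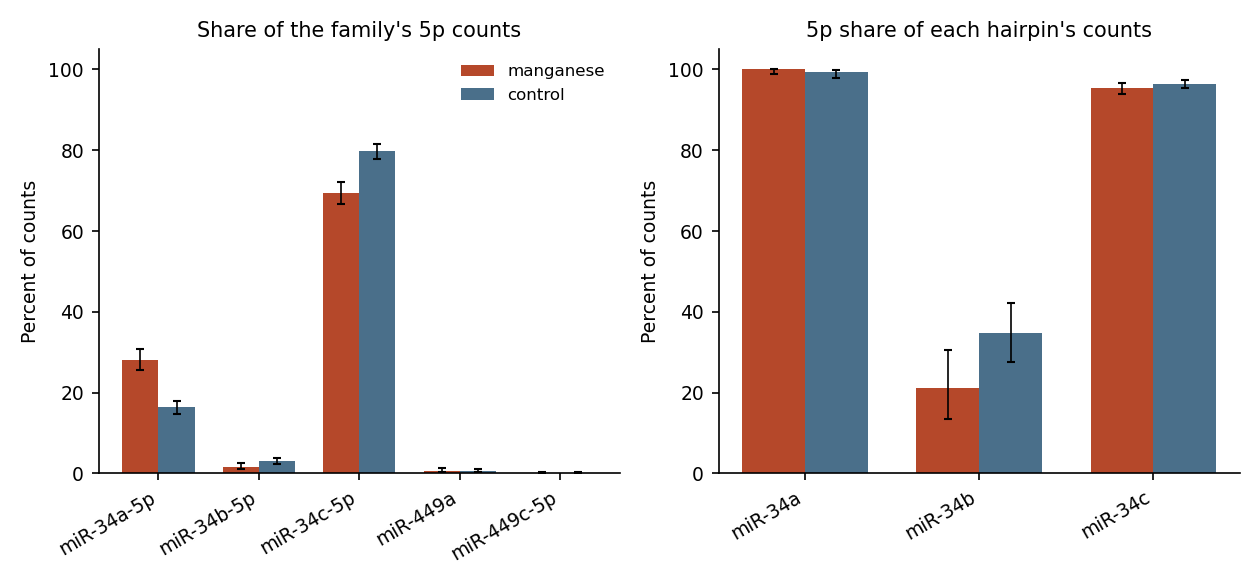
Left, the share of each entry in the family's 5p counts, in percent, and right, the 5p share of the counts of each miR-34 hairpin, for manganese (red) and control (blue). Bars start at 0 and error bars are exact binomial 95% intervals. miR-34c-5p holds 69.5% of the 5p pool with manganese and 79.8% in the control, and miR-34b is the hairpin where the 5p arm is the minor one.

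The measured entries most like miR-34b-5p and miR-34c-5p in level belonged to other loci. For miR-34c-5p they were miR-20a-5p (distance 0.32 log2 units, 802 counts with manganese and 1275 in the control), miR-19a-3p (0.33) and miR-744-5p (0.44). Their folds were 0.638, 0.423 and 0.750, beside 0.520 for miR-34c-5p. The distance uses both libraries, so near entries have similar folds by construction. For miR-34b-5p the nearest were miR-508-3p (0.21, with 21 and 53 counts), miR-1296-5p (0.56) and miR-766-3p (0.57). Their folds were 0.402, 0.535 and 0.495, beside 0.333 for miR-34b-5p. These distances rest on 2 libraries and 401 entries.

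Other miRNAs linked to p53 moved in both directions. The list held 21 entries of 12 miRNAs outside the family, of which 10 were measured. By the rule 1 was higher, miR-143-3p, which is also a mesenchymal marker, with 354 counts with manganese and 26 in the control (13.8-fold, 9.27 to 21.4), and 0 were lower. Of all measured entries, 12.9% were higher and 6.45% lower by this rule, and 15.9% and 14.1% at 1.5-fold. At 1.5-fold 3 were higher, the others being the p53-induced miR-192-5p with 1139 and 626 counts (1.85-fold, 1.67 to 2.04) and miR-194-5p with 55 and 28 (1.99-fold, 1.24 to 3.26). At 1.5-fold 4 were lower. Of these, miR-22-3p had 1518 counts with manganese and 2697 in the control, a fold of 0.571 (0.536 to 0.608). Its other arm miR-22-5p had a fold of 0.653 (0.528 to 0.805). Both arms come from the same hairpin, so they are not independent observations. miR-107, whose host gene PANK1 is a p53 target, had 168 counts with manganese and 298 in the control, a fold of 0.572 (0.471 to 0.693). miR-149-5p gave 50 counts with manganese and 97 in the control, and its fold was 0.523 (0.364 to 0.743). The remaining measured members, miR-16-5p, miR-15a-5p and miR-1246, had folds of 0.899, 0.691 and 0.825. Of the 11 entries that were not measured, 6 were at 0 in both libraries and 5 had few counts. miR-15a-3p had 5 counts with manganese and 1 in the control, and miR-145-5p had 2 in each. With manganese miR-194-3p, miR-149-3p and miR-215-5p were at 0, and they had 4, 3 and 2 counts in the control. The list's median log2 fold was −0.41 (−0.81 to 0.99), beside −0.08 over all measured entries. That interval is read from the ranked folds of the 10 measured members and treats them as independent. It is not one of counting error.

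The list of airway epithelial miRNAs held 230 counts with manganese and 122 in the control. It covered 16 entries of 9 miRNAs, and 3 were measured. miR-200b-3p had 74 counts with manganese and 32 in the control (2.35-fold, 1.53 to 3.67), miR-429 had 60 and 29 (2.10-fold, 1.33 to 3.39) and miR-200a-3p had 70 and 45 (1.58-fold, 1.07 to 2.35). The first 2 were higher by the rule and 0 were lower, beside 12.9% higher and 6.45% lower of all measured entries. Of the 13 entries that were not measured, 7 were at 0 in both libraries, among them the keratinocyte miR-203a-3p. The other 6 had few counts and lay on both sides. The basal-cell miR-205-5p had 11 counts with manganese and 3 in the control, miR-200c-3p had 7 and 3, miR-375 had 3 and 1, and miR-141-3p had 2 and 0. In contrast, miR-200a-5p had 3 counts with manganese and 6 in the control, and the airway miR-4423-5p had 0 and 3. The 3 measured members, all above 1-fold, had a median log2 fold of 1.07 (members from 0.66 to 1.23). They belong to the miR-200 family and may not be independent observations. The measured arms of miR-34b and miR-34c were below 1-fold, though the interval of miR-34c-3p includes 1-fold.

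Scaling changed the size of the folds of the miR-34b and miR-34c locus but not their side of 1. Leaving the blood cell and 19q13 lists out of the library totals shifted the median log2 fold over all measured entries by 0.19. The fold of the locus was then 0.601, that of miR-34c-5p 0.592 and that of miR-34b-5p 0.378. In each of the 5 scalings miR-34b-5p was the only family entry lower by the rule. At 1.5-fold 2 family entries were lower with that scaling instead of 3, since the fold of miR-34b-3p became 0.753. Its interval, 0.555 to 1.02, then included 1-fold. The split of all measured entries passing the rule was 60 higher and 15 lower in this scaling and 52 higher and 26 lower with TMM.

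**Figure D4:**
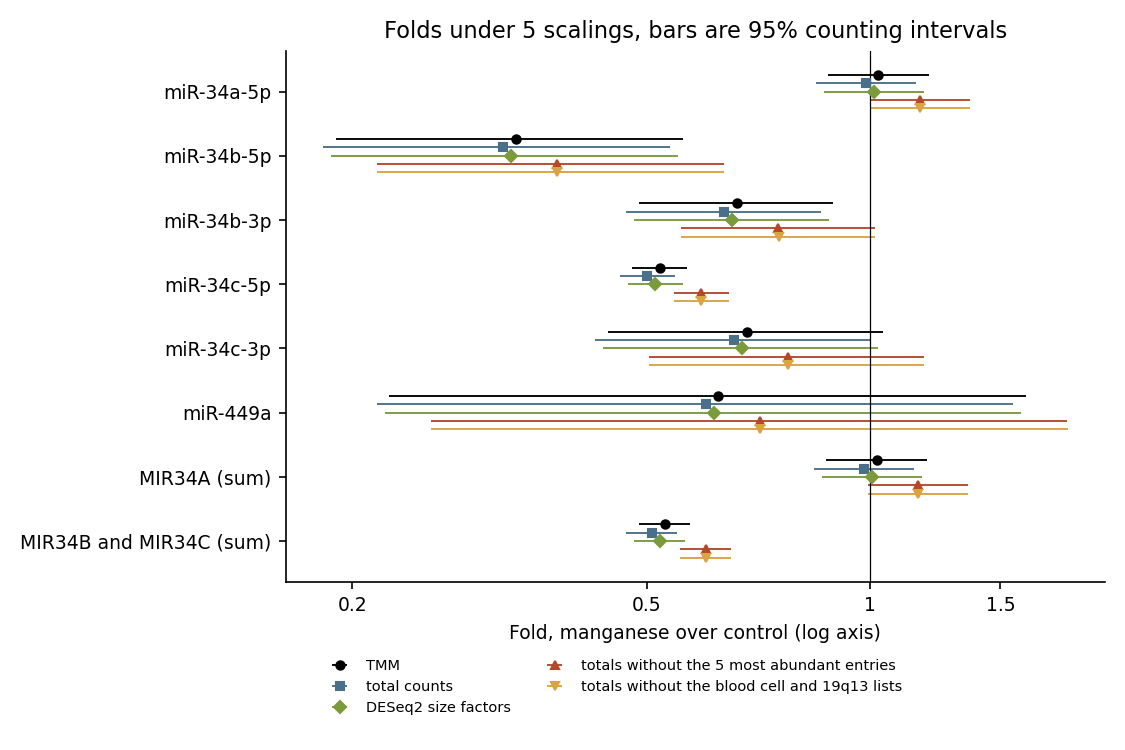
Folds, manganese over control (log axis), of the 6 measured family entries and of the summed MIR34A and MIR34B with MIR34C loci under 5 scalings of the libraries. Bars are 95% intervals of counting error, and the vertical line marks 1-fold. The summed MIR34B and MIR34C locus lies between 0.508 and 0.601, and miR-34a-5p between 0.987 and 1.17.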

How the data were processed

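Per the labels, small RNA from BEAS-2B cells was isolated with a column kit. The authors deposited whole-number counts for each mature miRNA, 1 column for each library, and the unit was read from the values. In a second deposited table, 2904 of 2904 values were the difference of the counts, manganese minus control, with a tolerance of 0 counts. Per the submitters' processing notes the build was hg38. The sources used here name no aligner, counter, miRNA annotation or filter.

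Columns were assigned by names that match the sample descriptions. Library sizes were scaled by TMM factors (edgeR 4.0.16 in R 4.3.3), which were 0.981 for manganese and 1.02 for control. Folds have exact conditional binomial intervals, shares have Clopper-Pearson intervals, and ratios of loci or arms have exact conditional odds-ratio intervals (scipy 1.17.1, Python 3.11.15). For the 83 hairpins with both arms measured, log-odds normal intervals were used, and 2 hairpins with a count of 0 had no interval. No molecular identifiers are mentioned, so intervals of folds, shares and ratios and the floor of 3 counts cover counting error only. The fold rule and intervals were tested on simulated Poisson counts. Those counts hold counting error alone, so the test cannot show how the rule holds under variation between libraries or TMM scaling.

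The named entries were all family entries, other entries sharing a 5p seed, the measured members of both lists, and the 3 nearest entries to each of 3 members. Arms that were not measured were chosen for naming with their values known. The members and lists were chosen with earlier results of these data known. Alternatives were 4 other scalings, among them size factors of DESeq2 1.42.0, pseudocounts of 1 and 5, other count filters, other rules and arm subsets.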

Additional observations from a re-analysis of the deposited data

How the results depend on the processing

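No paired analysis was possible because each group held 1 library, and for the same reason no library could be left out in turn. Of 79 alternative values computed, 65 stayed within the interval of the reported value (for counts of entries, within 1.5 times it), 14 moved further, and 0 reversed a value whose interval excluded 1-fold. Leaving out of the totals either the 5 most abundant entries or the blood cell and 19q13 lists gave 0.592 for miR-34c-5p and 0.601 for the MIR34B and MIR34C locus, 1.26 for the median log2 fold of the airway epithelium list, and 15 lower entries in place of 26. With no filter 82 entries were higher in place of 52. A filter of 100 counts, which admits fewer entries, gave 17 higher and 10 lower. Asking 2-fold of the nearer interval bound gave 26 higher and 4 lower, and asking 1.5-fold of the fold gave 57 lower. Among 211 entries with at least 100 counts, 16.6% were lower at 1.5-fold. Depth limits what can be said of the miR-449 locus, where 8 and 17 counts leave a fold between 0.178 and 1.17.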
